A study of Ambystoma mexicanum with 5 samples.

Results

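Periostin (POSTN, *Postn*), fibronectin (FN1, *Fn1*), tenascin-X (TNXB, *Tnxb*) and pentraxin 3 (PTX3, *Ptx3*) are 4 secreted matrix glycoproteins, taken here from a table of 99088 axolotl genes. They were chosen by their measured difference between anterior and posterior dermis. Each is among the genes that the study called with DESeq2 on these same libraries, and those calls are also the source of the symbols. The identifiers are AMEX60DD049175 for *Postn*, AMEX60DD055420 for *Fn1*, AMEX60DD001838 for *Ptx3* and AMEX60DD010491 for *Tnxb*. The anterior–posterior differences below are therefore descriptions and not tests.

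Dermal connective tissue cells were purified from the uninjured lower forelimb skin of axolotls 12 cm long, to find genes that mark position along the anterior–posterior axis. There were 2 anterior and 3 posterior libraries, each from the pooled lower arms (16) of 8 animals. All animals carried a driver transgene, Mmu.Prrx1:TFPnls-T2A-ERT2-Cre-ERT2, with a reporter, Caggs:loxP-GFP-loxP-mCherry, and had received 4-hydroxytamoxifen as embryos, so that cells in which the mouse *Prrx1* enhancer had driven Cre were permanently labelled with mCherry and could be sorted. The sort was thus aimed at cells that this enhancer had marked. Transcripts of genes listed as markers of other cell types were also counted, as given below. Whether they came from such cells or from the sorted cells was not tested. Skin of the lower arms was cut into anterior and posterior pieces, and the sources used here do not say whether any anterior and posterior pools came from the same arms. Since these are bulk libraries, fewer expressing cells and less RNA per cell cannot be told apart.

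The extracellular matrix of the dermis is a network of collagen fibrils to which glycoproteins attach. Fibronectin is assembled by cells into fibrils through integrin receptors, and it forms an early scaffold for other matrix proteins. Periostin, a protein with fasciclin domains, binds collagen and fibronectin and in mouse promotes collagen cross-linking. Tenascin-X binds collagen fibrils, and its loss in humans causes a form of Ehlers–Danlos syndrome with lax skin. Pentraxin 3 is a soluble pattern-recognition protein that in mouse also helps to cross-link hyaluronan in the matrix around the oocyte.

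The libraries held 44317956 to 59062548 counts, and the 10 most abundant genes took 16.3% to 19.0% of each. No pair of libraries was identical. Counts of the same gene in a pair of replicates differed by far more than counting error, with a chi-square per gene of 74.6 to 117 between replicates and of 133 to 199 between positions, where counting error alone gives about 1. According to the study's methods, the cells of each replicate were sorted into a separate tube. The sources used here do not say whether replicates came from separate clutches. The cell type could not be checked here against defining connective tissue markers. Symbols were available only for genes that the study called between positions, and 0 of 9 such markers could be matched. The study itself reports *Prrx1* and *Tbx5* in both anterior and posterior cells.

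*Postn* was by far the most abundant of the 4 and was higher in anterior cells. The anterior libraries held 362677 and 460136 counts of it, against 266237, 298023 and 251189 for the posterior ones. As a share of all counts, this was 0.818% and 0.895% in anterior cells and 0.451%, 0.511% and 0.466% in posterior cells. Every anterior library lay above every posterior one. *Postn* was the 8th most counted gene in both anterior libraries and ranked between 19th and 26th in the posterior ones. In other words, 1 count in 112 to 122 came from *Postn* in anterior cells and 1 in 196 to 222 in posterior cells. The 95% Wilson interval of a share was narrow, 0.8157% to 0.821% in anterior replicate 1 for example, but it covers counting error only and the replicates differed by more than that.

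*Ptx3* had the same direction with a larger fold difference. It had 74176 and 68788 counts in anterior cells, or 0.167% and 0.134% of all counts. In posterior cells it had 42352, 38828 and 26434 counts, or 0.0717%, 0.0666% and 0.049%. The lowest anterior library was above the highest posterior one, and posterior replicate 3 was the lowest of the 5. Its rank by count was 99th and 121st in anterior cells and 221st to 281st in posterior cells.

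*Fn1* was higher in posterior cells. Anterior libraries held 36139 and 39159 counts, 0.0815% and 0.0762% of all counts. Posterior libraries held 76213, 78655 and 69528, or 0.129%, 0.135% and 0.129%. The posterior libraries were nearly equal and none overlapped with the anterior ones. The rank of *Fn1* went from 203rd and 208th in anterior cells to between 128th and 143rd in posterior cells.

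*Tnxb* was the least abundant member and was also higher in posterior cells. In anterior cells 6507 and 10031 counts were obtained, 0.0147% and 0.0195% of all counts. In posterior cells there were 16251, 18224 and 23832 counts, 0.0275%, 0.0313% and 0.0442%. Posterior replicate 3, the lowest library for *Ptx3*, was the highest for *Tnxb*. The groups again did not overlap. An absence of overlap in either direction was also seen in 24.1% of all 20875 genes tested, 10.5% with the posterior libraries above and 13.6% with the anterior ones above, and it was favoured here by how the 4 genes were picked.

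**Figure D1:**
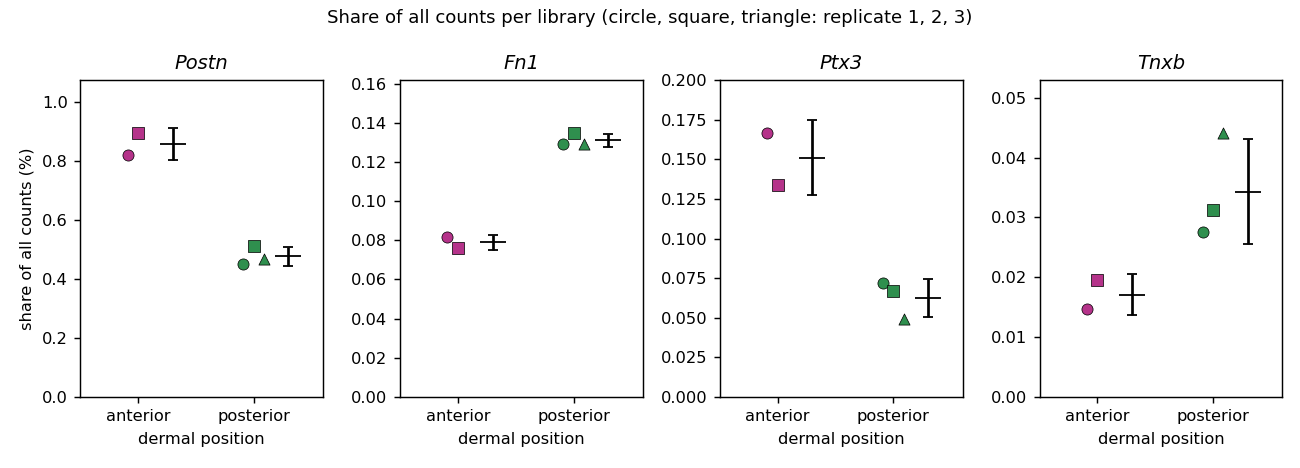
Share of all counts (%, vertical axis from 0) of each gene in every library, anterior in magenta and posterior in green, with the mean and SD of each position as black bars (n = 2 anterior, n = 3 posterior). *Postn* fell from 0.857% to 0.476% on average and *Ptx3* from 0.151% to 0.0625%, whereas *Fn1* was at 0.0789% and 0.131% and *Tnxb* at 0.0171% and 0.0343%.

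Levels were then expressed as CPM, the count relative to the library total, after TMM, a scaling between libraries that is robust to a few very abundant genes. Values are means ± SD over 2 anterior and 3 posterior libraries. *Postn* was at 8560 ± 651 CPM anteriorly and 4770 ± 288 CPM posteriorly, and the fitted log2 difference, posterior minus anterior, was -0.84 (standard error 0.08), or 1.79-fold. *Ptx3* averaged 1500 ± 218 CPM and 626 ± 120 CPM, a log2 difference of -1.26 (standard error 0.16), or 2.40-fold. *Fn1* averaged 787 ± 27.8 CPM and 1310 ± 27.4 CPM, a log2 difference of 0.74 (standard error 0.10), or 1.67-fold. *Tnxb* averaged 171 ± 36.3 CPM and 344 ± 87.8 CPM, a log2 difference of 1.01 (standard error 0.21), or 2.01-fold. The members with the larger fold differences, *Ptx3* and *Tnxb*, also had the larger standard errors. Because the libraries read the 3′ end of each transcript, the levels of different genes were compared without a correction for length. Other differences between genes in how reads are counted, such as reads with several alignments, were not corrected. On these levels *Postn* exceeded *Fn1*, *Ptx3* and *Tnxb* in every library.

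The closest pair of opposite libraries still differed by 1.59-fold for *Postn*, 1.6-fold for *Fn1*, 1.87-fold for *Ptx3* and 1.41-fold for *Tnxb*. The farthest pair differed by 1.99-fold, 1.75-fold, 3.37-fold and 3.05-fold in the same order. With each library left out in turn, the log2 difference stayed between -0.92 and -0.76 for *Postn*, 0.70 and 0.77 for *Fn1*, -1.40 and -1.11 for *Ptx3*, and 0.80 and 1.24 for *Tnxb*. The shares of counts moved as little when the total was changed. Without the 10 most abundant genes in the total, the posterior share divided by the anterior share was 0.545 in place of 0.556 for *Postn* and 1.63 in place of 1.66 for *Fn1*.

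With a false-discovery rate below 0.01 in the quasi-likelihood test of edgeR, 3 of these 4 genes passed, *Postn* and *Ptx3* as anterior genes and *Fn1* as a posterior gene. Of all genes tested, 0.254% passed, 0.134% as anterior and 0.12% as posterior genes. The share in either direction was 2.03% among genes with a mean of at least 100 CPM and 3.49% among those with at least 1000 CPM. *Tnxb* did not pass in this test. In the DESeq2 test, the kind the study used to select them, all 4 passed. So did 1.37% of the 21794 genes to which that test gave an adjusted p-value. With any 1 of the 3 posterior libraries left out, 0 of the 4 passed in edgeR, but few genes of any kind did. Without posterior replicate 1, 2 or 3, the whole table gave 2, 2 and 2 posterior genes and 3, 0 and 1 anterior genes. All 4 had an unadjusted p-value under 0.05 in each of these fits, among 1514, 1619 and 1883 such genes. With either anterior library left out, *Postn* and *Ptx3* passed and *Fn1* did not. These counts follow from the selection and carry no evidence of their own.

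**Figure D2:**
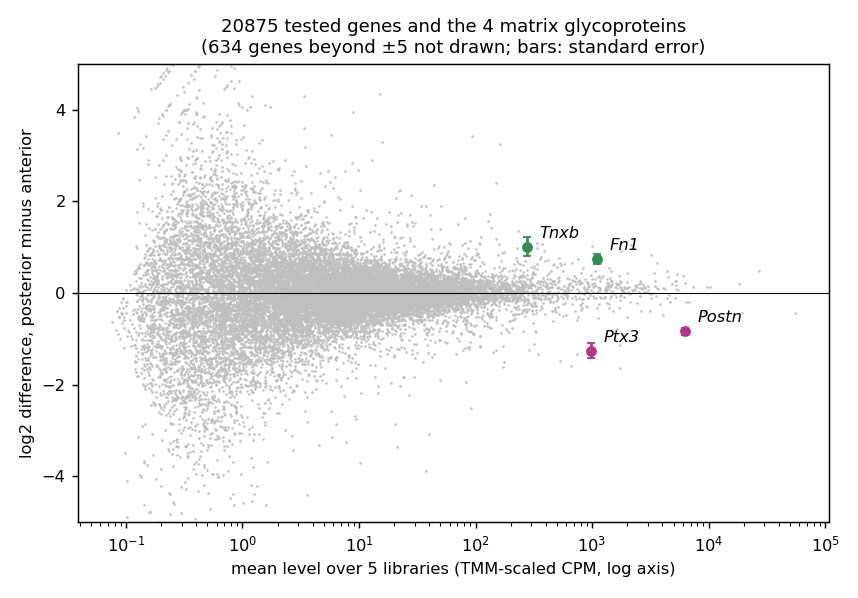
Mean level over the 5 libraries (TMM-scaled CPM, log axis) against the log2 difference, posterior minus anterior, for 20875 tested genes in grey, of which 634 beyond 5 in size are not drawn. The 4 named genes are coloured by the position in which they were higher, with their standard errors, and lie at the right of the cloud, where differences are smallest for most genes.

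Large differences were uncommon at these levels. Among the 172 genes with a mean of at least 1000 CPM, the median size of the log2 difference was 0.156, and 5 genes had a larger one than *Postn* and 8 a larger one than *Fn1*. Among the 1132 genes with a mean of at least 100 CPM, the median was 0.161, with 14 genes beyond *Ptx3* and 31 beyond *Tnxb*. *Postn*, *Fn1*, *Ptx3* and *Tnxb* were picked for this same difference, so their high ranks follow from the choice and are not evidence of their own.

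The spread between replicates of one position was not itself a ground of the choice, although a small spread favours a call. It differed between the 4 genes. The SD of the log2 level within positions was 0.0383 for *Fn1*, and only 16 of the 172 genes with at least 1000 CPM had a smaller one. *Postn*, at 0.0947, was close to the median of 0.0966 in that class. *Ptx3*, at 0.267, and *Tnxb*, at 0.339, were among the more variable genes of the class with at least 100 CPM, whose median was 0.131, as 997 and 1076 of its 1132 genes varied less. The coefficient of variation between posterior replicates was 2.09% for *Fn1*, 6.04% for *Postn*, 19.1% for *Ptx3* and 25.5% for *Tnxb*.

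Ratios between the 4 genes within a library do not depend on any scaling. *Postn* counts were 10 and 11.8 times those of *Fn1* in the anterior libraries and 3.49, 3.79 and 3.61 times in the posterior ones. *Ptx3* had 2.05 and 1.76 times the counts of *Fn1* in anterior cells and 0.556, 0.494 and 0.38 times in posterior cells, so that the order of the 2 genes was inverted between positions. The ratio of *Ptx3* to *Tnxb* ranged from 6.86 to 11.4 in anterior and from 1.11 to 2.61 in posterior cells. Each of the 4 genes was picked for its own difference and separates the positions, so ratios of an anterior to a posterior gene must separate them too. Genes with the same direction kept a more even ratio, which also follows largely from the choice. *Postn* to *Ptx3* was 4.89 and 6.69 in anterior and 6.29 to 9.5 in posterior cells, and *Fn1* to *Tnxb* was 3.90 and 5.55 against 2.92 to 4.69, with overlap between positions in both cases.

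**Figure D3:**
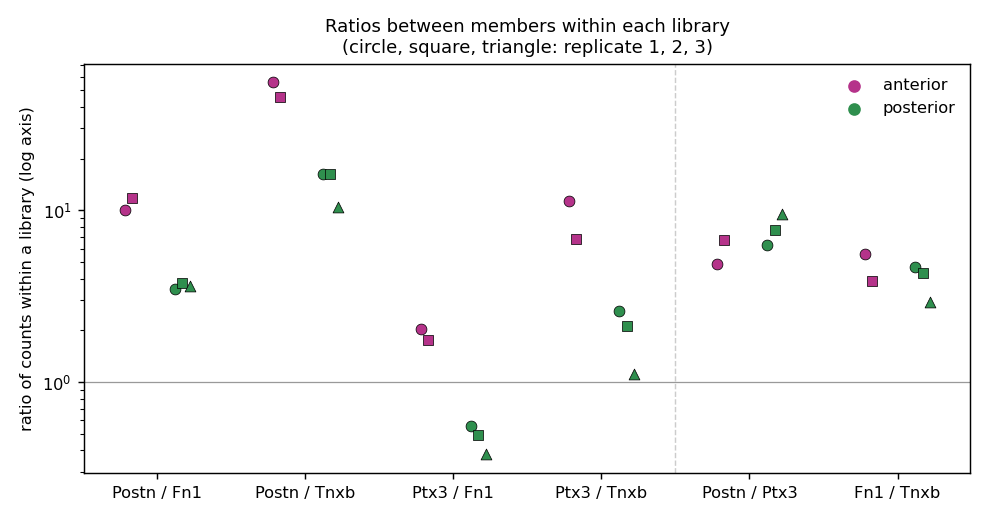
Ratio of the counts of 2 genes within each library (log axis), with anterior libraries in magenta and posterior libraries in green. The 4 ratios left of the dashed line pair an anterior with a posterior gene and do not overlap between positions (*Ptx3* to *Fn1*, 1.76 to 2.05 against 0.38 to 0.556), whereas the ratios on its right overlap. Each gene was picked for its own difference, so the separation on the left is built in.

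Together the 4 genes took 1.08% and 1.12% of all anterior counts, against 0.679%, 0.744% and 0.688% for posterior libraries. The make-up of this sum also differed. *Postn* supplied 75.6% and 79.6% of it in anterior cells and 66.4% to 68.7% in posterior cells. *Fn1* supplied 7.54% and 6.77% in anterior and 18.1% to 19.0% in posterior cells, and *Tnxb* went from 1.36% and 1.74% to between 4.05% and 6.42%.

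*Ptx3* and *Tnxb* ordered the 5 libraries in exactly opposite ways. From high to low, *Ptx3* gave anterior replicate 1, anterior replicate 2 and posterior replicates 1, 2 and 3, and *Tnxb* gave the reverse. Both genes were picked for separating the positions, so only the order within each position was free. Of all genes tested, 1.05% had the order of *Ptx3* and 1.08% its reverse. Those were 219 of the 2835 genes with every anterior library above every posterior one, and 226 of the 2191 with the opposite separation. The match was noticed after the values were seen, and no conclusion is drawn from it. *Postn* and *Fn1* did not share these orders.

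Markers of other cells and states also had different levels in the anterior and posterior libraries, although most did not pass in edgeR. All of those matched are among the study's calls on these libraries, so that counts of them that passed follow largely from the choice. Of the 20875 genes tested in edgeR, 1576 had an unadjusted p-value under 0.05. In DESeq2, 1.37% of 21794 genes passed. Of 9 immediate-early and dissociation genes, 6 could be matched (*Jun*, *Egr4*, *Ccn1*, *Per1*, *Sgk1* and *Hsp90aa1*). Their fitted differences were all towards anterior cells, and 0 of the 6 passed in edgeR, although all 6 had an unadjusted p-value under 0.05 and 4 passed in DESeq2. Their summed level was 4250 and 2830 CPM in the anterior libraries and 2000, 1880 and 1590 CPM in the posterior ones, the library order of *Ptx3*. *Jun*, which encodes a subunit of the AP-1 transcription factor, made up the larger part of this sum in every library. Of the 6 genes, only *Jun* gave that order by itself, from 2600 CPM in anterior replicate 1 to 1090 CPM in posterior replicate 3. *Ccn1*, the next most abundant, was at 471, 521 and 389 CPM in posterior replicates 1, 2 and 3. The part of the 6 genes in the *Ptx3* and *Postn* differences was not tested.

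Of 9 epidermal markers, 5 could be matched, to 6 identifiers (*Krt5*, *Krt17*, *Krt19* at 2 identifiers, *Dsp* and *Col17a1*), all with fitted differences towards posterior cells. *Krt5*, *Col17a1* and 1 of the *Krt19* identifiers passed in edgeR. All 6 identifiers had an unadjusted p-value under 0.05 and passed in DESeq2, which follows largely from the study's calls. Over all genes, 1576 of 20875 had such a p-value in edgeR and 1.37% passed in DESeq2. Their summed level was 316 and 295 CPM in anterior and 878, 634 and 724 CPM in posterior libraries, and *Krt17* had 0 counts in both anterior ones. Between positions, *Tnxb* and *Fn1* were higher in posterior cells, as was the epidermal sum. Within the posterior libraries, that sum was highest in replicate 1, *Tnxb* was highest in replicate 3 and *Fn1* was nearly the same in all 3. Of 6 immune markers, 3 were matched (*Ctss*, *Timd4* and *Arhgdib*), with a sum of 82.4 to 116 CPM in anterior and 178 to 203 CPM in posterior cells. Of these, 0 passed in edgeR, 3 had an unadjusted p-value under 0.05 and 3 passed in DESeq2. The part of epidermal and immune cells, if present, in the *Fn1* and *Tnxb* differences was not tested. Single markers were matched for pericytes (*Rgs5*, 26.9 to 36.2 CPM in anterior and 9.81 to 14.6 CPM in posterior cells), Schwann cells (*Ngfr*, 42.5 to 44.7 and 16.1 to 23.6 CPM) and muscle (*Cav3*, at most 1 count in an anterior library and 69 to 106 counts in posterior ones), and 0 of 5 endothelial markers. *Rgs5*, *Ngfr* and *Cav3* did not pass in edgeR, although each had an unadjusted p-value under 0.05 and passed in DESeq2.

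**Figure D4:**
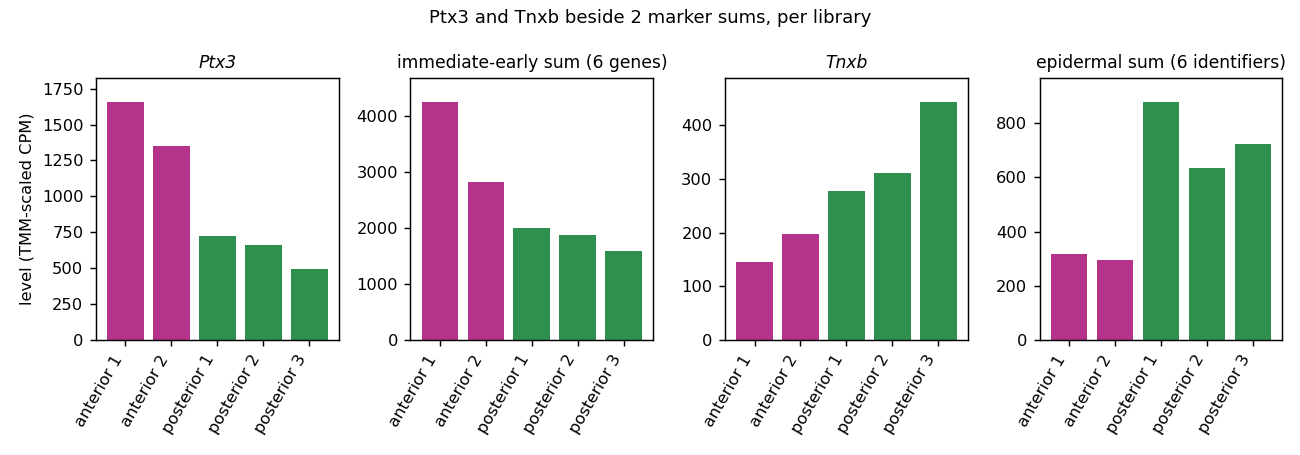
Level (TMM-scaled CPM, vertical axes from 0) of *Ptx3*, of 6 immediate-early and dissociation genes summed, of *Tnxb* and of 6 epidermal identifiers summed, with 1 bar per library, anterior in magenta and posterior in green. The immediate-early sum, of which *Jun* was the larger part, ranged from 4250 CPM in anterior replicate 1 to 1590 CPM in posterior replicate 3. Its library order was that of *Ptx3*, which of the 6 genes only *Jun* gave by itself. All 6 were matched through the study's calls between positions, which favours a sum that separates them. The epidermal sum was 316 and 295 CPM in the anterior libraries and 634 to 878 CPM in the posterior ones, and *Tnxb* was also higher in the posterior ones. The number of a replicate is a name and not an order.

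The genes whose levels followed each member most closely were sought among 253 other genes with a symbol, by Pearson's r of log2(CPM + 0.5) over the 5 libraries. These candidates were all called by the study between the same positions, which favours a high r, and only the 3 highest of the 253 were kept. Between members with the same direction, r was 0.92 for *Postn* and *Ptx3* and 0.854 for *Fn1* and *Tnxb*. For *Postn* they were *Ism1* (r of 0.999, log2 difference -0.79), *Thbs2* (0.997, -1.49), which encodes another matricellular protein, and *Barx1* (0.997, -1.85), which encodes a homeobox transcription factor. For *Ptx3* they were *Corin* (0.997, -0.87), a transmembrane protease, *Tmeff1* (0.997, -0.64) and *Lmo4* (0.996, -1.19), a LIM-domain cofactor. For *Fn1* they were *Igfbp5* (0.999, 0.98), a secreted binding protein of insulin-like growth factors, *Drd1* (0.998, 2.70), a dopamine receptor at only 0.466 and 3.04 CPM, and *Wnt2b* (0.997, 1.33), a Wnt ligand. For *Tnxb* they were *Crip1* (0.998, 1.07), *Scara5* (0.991, 0.87), a ferritin receptor in mouse, and *Abca8* (0.984, 0.71), a lipid transporter. *Crip1* was at 96.3 CPM in anterior and 202 CPM in posterior cells, and its fold difference was close to that of *Tnxb*.

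Of a list of 30 matrix glycoproteins that includes the 4, 20 had an identifier, all of them through the study's calls on these libraries, so that their directions are not independent evidence. The fitted difference was towards anterior cells in 15 and towards posterior cells in 5, with a median of -0.91, beside a median of -0.0161 over all genes tested. Of these, 5 passed as anterior and 2 as posterior genes, beside 0.254% of all genes tested in either direction, a gap that the choice of genes already called by the study builds in. Besides *Postn* and *Ptx3*, the anterior ones were *Smoc2*, an extracellular modulator of BMP signalling (log2 difference -1.94, standard error 0.16), *Thbs2* (-1.49, 0.12) and *Crtac1*, a cartilage matrix protein (-1.17, 0.15). Besides *Fn1*, the posterior one was *Thbs3*, a pentameric thrombospondin (1.64, 0.20).

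All 20 had an unadjusted p-value under 0.05 and passed in DESeq2, which follows largely from the study's calls. Over all genes, 1576 of 20875 had such a p-value in edgeR and 1.37% passed in DESeq2. Of those that did not pass in edgeR, *Fbln5*, which in mouse is needed to build elastic fibres, had a log2 difference of 0.95 (standard error 0.15). *Mfap5*, a microfibril protein, had 1.03 (0.14), with means of 617 ± 39.3 CPM and 1260 ± 215 CPM. *Mfap4* had -0.61 (0.12), *Fbln2* -0.81 (0.14) and *Emilin3* -1.07 (0.23). The remaining ones, *Npnt*, *Egfl6*, *Crispld2*, *Papln*, *Thsd4*, *Emid1* and *Ccn1*, had differences from -1.34 to -0.87. *Postn* was the most abundant of the 20 genes, whose summed level was 15600 to 16100 CPM in anterior and 9980 to 10800 CPM in posterior cells.

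**Figure D5:**
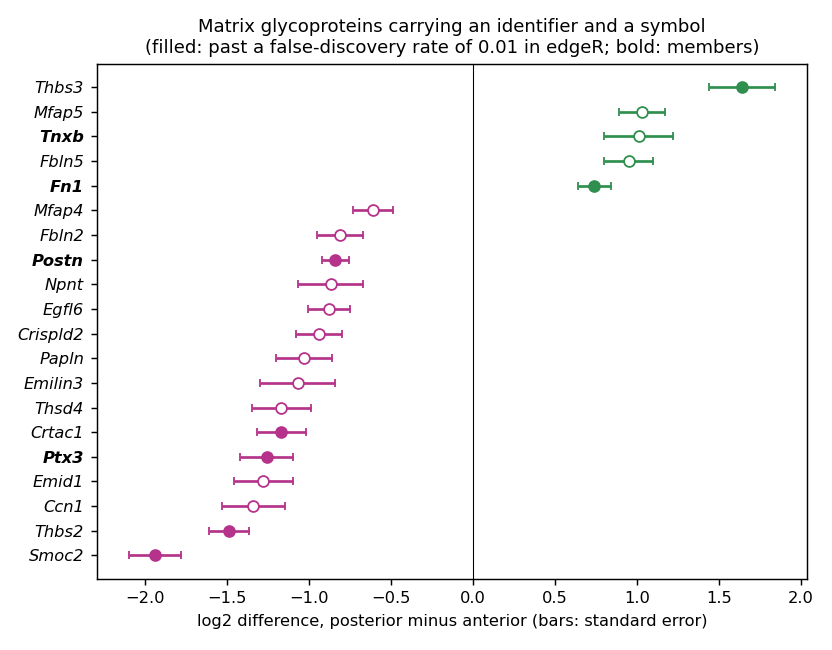
Log2 difference, posterior minus anterior, with its standard error for 20 matrix glycoproteins that have an identifier and a symbol. Filled points passed in edgeR (false-discovery rate, 0.01), open points did not, and names in bold are the 4 genes described here. The anterior genes run from *Smoc2* at -1.94 to *Mfap4* at -0.61 and the posterior genes from *Fn1* at 0.74 to *Thbs3* at 1.64.

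Of 25 known binding partners of the 4 proteins, 3 had an identifier, again only through the study's calls on these libraries. Each was higher in the anterior libraries on average, which is not independent evidence. All 3 had an unadjusted p-value under 0.05, beside 1576 of all 20875 genes, and passed in DESeq2, beside 1.37% of all genes. Both counts follow largely from the study's calls. *Col12a1*, a fibril-associated collagen to which tenascin-X can bind, averaged 2560 ± 380 CPM anteriorly and 1170 ± 202 CPM posteriorly, and it passed (log2 difference -1.13, standard error 0.15). Its difference was thus opposite in sign to that of *Tnxb*. *Has2*, a synthase of the hyaluronan that pentraxin 3 helps to cross-link, did not pass (-1.06, 0.25), with 168 and 93.7 CPM in anterior and 62.7, 76.0 and 49.2 CPM in posterior libraries. *Fbln2*, which binds fibronectin, is given above. The partners not matched included the integrin subunits through which cells bind fibronectin and periostin, and they were not analysed here.

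The other matrix lists were likewise matched through the study's own calls, so that their counts are not to be read against the 0.254% of all genes that passed. The same holds beside the 1576 of 20875 genes with an unadjusted p-value under 0.05 and the 1.37% that passed in DESeq2. Of 7 collagens with an identifier, 1 passed as posterior (*Col17a1*, a collagen of epidermal hemidesmosomes) and 1 as anterior (*Col12a1*), and the median log2 difference was -0.66. All 7 had an unadjusted p-value under 0.05 and passed in DESeq2. Of 3 laminins and 5 proteoglycan or hyaluronan genes, 0 passed in edgeR, although all 3 and all 5 had an unadjusted p-value under 0.05 and passed in DESeq2. *Lama4* had 0.64 (standard error 0.14), *Lamb2* 1.21 (0.24) and *Lama1* -1.03 (0.21). Of 10 identifiers of matrix proteases and inhibitors, 1 passed in edgeR, a serine protease gene named *Prss23* (AMEX60DD049637, with 1.90 and 0.22). A second identifier with the same symbol (1.21, 0.19) did not pass. All 10 had an unadjusted p-value under 0.05, and 9 passed in DESeq2.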

How the data were processed

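The authors prepared QuantSeq 3′ libraries (20.25 ng RNA each). Per the submitters' processing notes, reads were trimmed with Trimmomatic 0.39, mapped with HISAT2 and counted with featureCounts, on AmexG_v6.0-DD according to the study's methods. How the authors counted reads with several alignments is not given in the sources used here, so that counts of close paralogues are uncertain. The deposited values are raw counts per gene and library, without normalization. According to the study's methods, a spike-in RNA mix (ERCC) was added to each sample, but 0 rows of the deposited counts are spike-ins.

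Here, edgeR 4.0.16 in R 4.3.3 was used with filterByExpr, TMM scaling and a quasi-likelihood fit of position to all 5 libraries, with Benjamini-Hochberg adjustment over 20875 genes and a false-discovery rate of 0.01. Standard errors are the absolute log2 difference divided by the square root of F. Shares are percentages of all counts, with 95% Wilson intervals that cover counting error only, and 3 counts correspond to 0.0508 to 0.0677 CPM. P-values set the difference between positions against the spread between these samples, which may be technical. In the quasi-likelihood fit, the variance of each gene is moderated with that of other genes.

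The members and lists were chosen with earlier results of these data known. Besides the 4 genes, the text names for each the 3 most similar genes, list genes past the threshold, all matrix glycoproteins and binding partners, and matched markers; *Lama1*, *Lama4* and *Lamb2* were added after their values were seen. Symbols come from the study's lists, which pair 283 of 306 identifiers with one. The RefSeq table of assembly UKY_AmexF1_1 matched 0 identifiers, so that no coordinates are given. Alternatives were DESeq2 1.42.0, other scalings and filters, a robust fit, the replicate block, a rate of 0.05 and each library left out.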

Additional observations from a re-analysis of the deposited data

How the results depend on the processing

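Signs of the 4 log2 differences were unchanged under 8 other settings and with each library left out. Over those settings they ran from -0.87 to -0.83 for *Postn*, 0.71 to 0.76 for *Fn1*, -1.29 to -1.11 for *Ptx3* and 0.80 to 1.03 for *Tnxb*, and the smallest differences of *Ptx3* and *Tnxb* came from the replicate block, in which posterior replicate 3 has no anterior partner. The ratio of posterior to anterior share, left out library by library, was 0.532 to 0.582 for *Postn*, 1.61 to 1.72 for *Fn1*, 0.373 to 0.467 for *Ptx3* and 1.72 to 2.34 for *Tnxb*. Calls were less stable. The number of genes past the threshold, 25 posterior and 28 anterior, became 169 and 168 without a filter on low counts, 160 and 138 with DESeq2, 47 and 56 with a robust fit, and 55 and 72 at a false-discovery rate of 0.05. With the replicate block, 68 posterior and 62 anterior genes passed, and the same 3 of the 4 members. No source used here ties same-numbered libraries to the same animals, and deviations from the group means in replicates 1 and 2 had an r of -0.017 across 16306 genes, so that the numbers were not treated as pairs. This does not show that the pools had separate origins. With each library left out, 2 to 31 posterior genes, 0 to 34 anterior genes and 0 to 2 of the 4 members passed in edgeR. The count of 0 anterior genes came without posterior replicate 2, where 1619 genes had an unadjusted p-value under 0.05. When 1 anterior library was left out, the other was assumed to vary like the posterior ones. *Tnxb* passed without a filter and in DESeq2 and in no other setting at 0.01. The cause of these changes was not tested.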
